A study of Homo sapiens with 6 samples.

Results

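The genes described here are 9 genes of prostaglandin synthesis, signalling and breakdown, PLA2G4A, PTGS1, PTGS2, PTGES, PTGES2, PTGER2, PTGER4, SLCO2A1 and HPGD, chosen by name for their roles, with earlier results of these data known, out of 58735 genes counted. RNA sequencing was performed in the established human pancreatic cancer line AsPC-1 to compare cells that carried an empty lentivirus (Vector, genotype labelled WT, n = 3) with cells that carried a lentivirus for MMP28, a secreted matrix metalloproteinase (OE-MMP28, n = 3). By the study's methods the overexpression virus also carried GFP and puromycin resistance, and infected cells were selected with puromycin, and nothing stated whether a group was a clone or a pool of infected cells. The study's methods give triplicate samples per group and, for cell experiments in general, independent repeats, but do not say whether these libraries came from separate cultures. The p-values here measure only the spread between these libraries, which may be technical.

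Prostaglandins are made from arachidonic acid, which phospholipase A2 enzymes release from membrane phospholipids. Cyclooxygenases turn arachidonic acid into prostaglandin H2, and terminal synthases turn this common precursor into prostaglandin E2, prostacyclin, thromboxane and other prostanoids. Secreted prostaglandin E2 acts on G protein-coupled receptors and is cleared by uptake through a transporter and oxidation inside the cell, and in many carcinomas the cyclooxygenase and dehydrogenase steps have been studied as opposing controls of its level.

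Total counts ranged from 13633249 to 16691458 per library, so that 3 counts, the limit that a count of 0 allows, corresponded to between 0.180 and 0.220 CPM (counts scaled to the library total), and such limits cover counting error only. Mitochondrial genes took 11.9% to 14.8% of the counts in Vector and 8.80% to 11.9% in OE-MMP28, and the calls of the prostaglandin genes were the same without them. MMP28 was at 5.17, 9.11 and 8.43 FPKM (reads scaled by gene length and sequencing depth) in Vector and at 13.1, 13.9 and 15.1 FPKM in OE-MMP28. Its mean was 1.85-fold higher (log2 fold change 0.90, SE 0.19, adjusted p = 0.00226) by edgeR, while the exact permutation test of its FPKM gave p = 0.1, the smallest that 3 against 3 allows. Epithelial markers were mostly abundant, with EPCAM at means of 313 and 289 FPKM in Vector and OE-MMP28. KRT7 was low, at means of 1.14 and 1.81 FPKM. Of the 8 epithelial markers, 2 were higher (KRT19 and MUC1) and 2 lower (CDH1 and CLDN4). This was 25.0% each, against 11.7 and 11.6 percent over all genes tested. The summed epithelial list, most of it KRT8, KRT18 and KRT19, ran from 2688 to 3672 FPKM in Vector and from 3636 to 4447 FPKM in OE-MMP28. The 8 leukocyte and macrophage markers summed to 164 to 186 FPKM in Vector and 106 to 146 FPKM in OE-MMP28, nearly all of it LYZ, the lysozyme gene, which was lower in OE-MMP28 (means 176 and 128 FPKM, adjusted p = 0.0376). Without LYZ the other 7 summed to 1.06 to 1.19 FPKM in Vector and to a lower 0.794 to 0.9545 FPKM in OE-MMP28. Most of this was CD14 (means 0.970 and 0.635 FPKM, edgeR adjusted p = 0.243). Without LYZ and CD14 the other 6 summed to 0.0561 to 0.197 FPKM in Vector and 0.196 to 0.293 FPKM in OE-MMP28. The 7 fibroblast markers summed to 33.9 to 40.9 and 39.3 to 57.0 FPKM, nearly all of it LUM (means 37.3 and 45.3 FPKM, adjusted p = 0.208), and to between 0.0756 and 0.176 FPKM without it. The 5 endothelial markers summed to 0.0441 to 0.170 and 0.179 to 0.293 FPKM, of which PECAM1 was higher in OE-MMP28 (counts of 0, 4 and 4 against 13, 21 and 30, adjusted p = 0.00361). PECAM1 passed the count filter through the OE-MMP28 libraries alone. A difference between the groups was thus a condition of its being tested. TYROBP, KDR and TEK had a count of 0 in every library. The part of these marker differences in the results was not tested.

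Of the 9 prostaglandin genes, 5 had enough reads to be tested. PLA2G4A and PTGER4 were higher in OE-MMP28, PTGES and HPGD were lower, and PTGES2 did not pass the threshold. Over all 15319 genes tested, 11.7 percent were higher and 11.6 percent were lower at an adjusted p under 0.05. The log2 fold changes of the 5 genes had a median of 0.35, the value of PTGES2, against 0.014 over all genes tested. With 2 genes called higher and 2 lower, this median does not describe a common shift. PLA2G4A, the highest of the 5, was tested only through its OE-MMP28 reads. The remaining genes, PTGS1, PTGS2, PTGER2 and SLCO2A1, had at most 5 reads in any library.

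**Figure D1:**
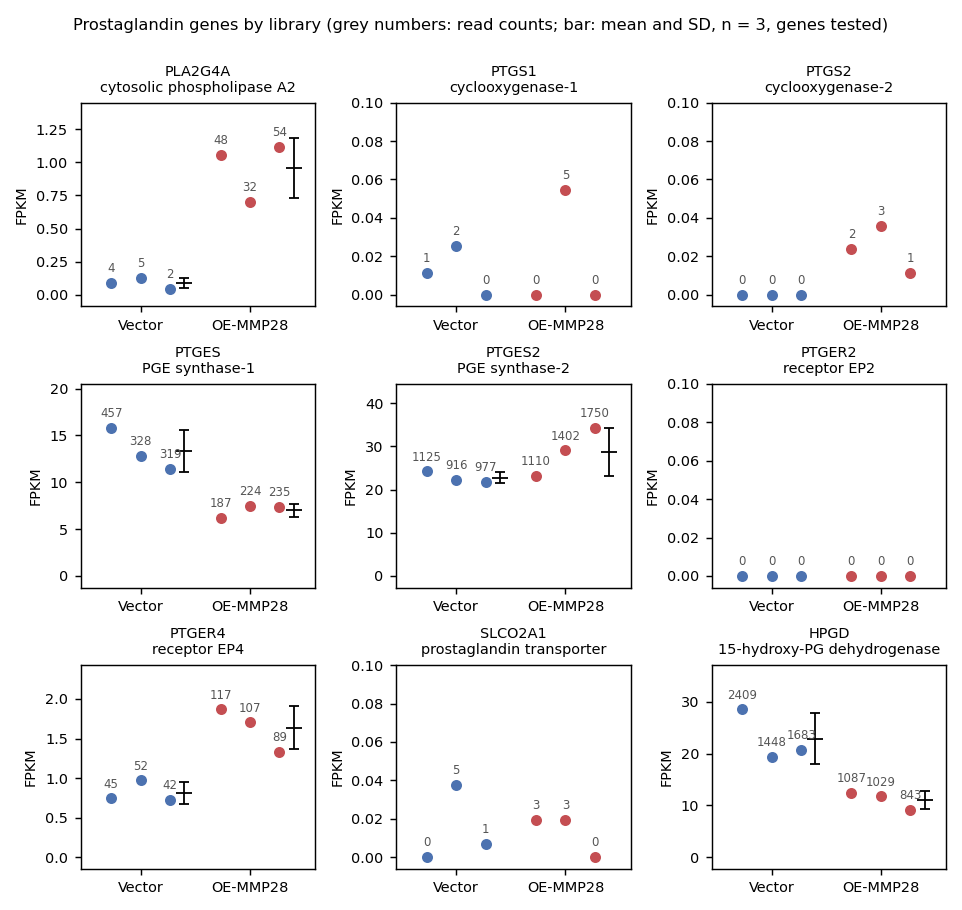
FPKM of each of the 9 genes (vertical axis, one panel per gene) in the 3 Vector libraries (blue) and the 3 OE-MMP28 libraries (red), with the read count above each point and the mean and SD beside the points for the 5 genes tested. The groups stand apart for PLA2G4A, PTGES, PTGER4 and HPGD, overlap for PTGES2, and hold 5 reads or fewer per library for PTGS1, PTGS2, PTGER2 and SLCO2A1.

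By level per gene length, the prostaglandin genes tested had the same order in both groups, apart from HPGD and PTGES2 at the top. In Vector, HPGD (mean 22.8 FPKM) and PTGES2 (mean 22.8 FPKM) led, and their ranges overlapped. PTGES followed at a mean of 13.3 FPKM, PTGER4 at 0.811 FPKM and PLA2G4A at 0.0890 FPKM, each without overlap with its neighbour in the order. In OE-MMP28, PTGES2 stood alone at the top with a mean of 28.8 FPKM, followed by HPGD at 11.1 FPKM, PTGES at 7.02 FPKM, PTGER4 at 1.64 FPKM and PLA2G4A at 0.958 FPKM, and no neighbours in this order overlapped. The other 4 genes lay at the bottom in both groups with overlapping ranges.

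PLA2G4A (ENSG00000116711, chr1:186828953-186988981, plus strand, GRCh38) encodes the cytosolic phospholipase A2 that is selective for phospholipids holding arachidonic acid. Its counts were 4, 5 and 2 in the Vector libraries and 48, 32 and 54 in the OE-MMP28 libraries. Scaled for length and depth these were 0.0910, 0.129 and 0.0472 FPKM against 1.06, 0.702 and 1.12 FPKM. Every OE-MMP28 library lay above every Vector library, although the gene stayed near 1 FPKM at its highest. PLA2G4A rose (log2 fold change 3.41, SE 0.47, adjusted p = 3.26e-05), the 20th of 7843 positive log2 fold changes when ranked by size. The summed counts of 134 against 11, scaled to the library totals, gave a 10.9-fold ratio with a 95% exact binomial interval of 5.89 to 22.3, which covers counting error only. The gene passed the count filter through the OE-MMP28 libraries alone, so a difference between the groups was a condition of its being tested. In such bulk RNA, more cells that express a gene and more of its RNA per cell cannot be told apart.

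Promoter windows of 300 bases around a gene start, from RefSeq on GRCh38.p14, are shown for the 4 genes that passed the threshold and for PTGS2, because these genes moved in opposite directions or stayed near 0 in the same cells. The PTGER4 and HPGD windows shown lie within the gene coordinates given here and do not hold the gene start of those coordinates. Of the 9 genes, 8 matched an entry, with 12 windows in all. Capitals mark matches on either strand to 6 short motifs: the TATA box (TATAAA), the CCAAT box (CCAAT), the GC box (GGGCGG), the core of the cAMP response element (TGACG), the AP-1 site (TGANTCA) and an E-box (CACCTG). No match to one motif overlapped a match to another in these windows, but GC box matches overlapped each other in the HPGD window. Each window is written 5′ to 3′ on the strand of its gene.
PLA2G4A (chr1:186828699-186828998, plus strand): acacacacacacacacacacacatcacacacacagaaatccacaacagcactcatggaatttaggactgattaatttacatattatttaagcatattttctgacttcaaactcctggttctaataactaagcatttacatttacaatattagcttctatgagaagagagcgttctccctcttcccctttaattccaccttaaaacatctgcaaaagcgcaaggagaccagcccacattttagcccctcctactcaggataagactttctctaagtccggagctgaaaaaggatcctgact
PTGER4 (chr5:40679665-40679964, plus strand): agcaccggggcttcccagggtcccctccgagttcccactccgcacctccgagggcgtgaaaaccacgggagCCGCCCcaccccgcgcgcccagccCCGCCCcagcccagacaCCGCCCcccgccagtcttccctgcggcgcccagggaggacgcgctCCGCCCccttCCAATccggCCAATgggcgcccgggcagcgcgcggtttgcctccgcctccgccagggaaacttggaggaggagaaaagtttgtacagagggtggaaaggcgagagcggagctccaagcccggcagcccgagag
HPGD (chr4:174522439-174522738, minus strand): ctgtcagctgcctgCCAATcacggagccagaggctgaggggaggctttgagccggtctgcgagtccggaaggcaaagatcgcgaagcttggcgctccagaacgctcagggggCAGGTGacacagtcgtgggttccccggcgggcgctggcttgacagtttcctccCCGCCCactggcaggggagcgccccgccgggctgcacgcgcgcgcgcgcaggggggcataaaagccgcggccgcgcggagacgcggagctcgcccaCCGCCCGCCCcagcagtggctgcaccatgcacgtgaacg
PTGES (chr9:129752993-129753292, minus strand): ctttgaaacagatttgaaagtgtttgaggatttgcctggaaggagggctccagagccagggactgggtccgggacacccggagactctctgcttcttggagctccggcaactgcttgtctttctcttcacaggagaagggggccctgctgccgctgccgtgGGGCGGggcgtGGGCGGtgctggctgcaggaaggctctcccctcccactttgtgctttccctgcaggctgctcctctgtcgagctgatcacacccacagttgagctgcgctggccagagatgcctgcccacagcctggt
PTGS2 (chr1:186680374-186680673, minus strand): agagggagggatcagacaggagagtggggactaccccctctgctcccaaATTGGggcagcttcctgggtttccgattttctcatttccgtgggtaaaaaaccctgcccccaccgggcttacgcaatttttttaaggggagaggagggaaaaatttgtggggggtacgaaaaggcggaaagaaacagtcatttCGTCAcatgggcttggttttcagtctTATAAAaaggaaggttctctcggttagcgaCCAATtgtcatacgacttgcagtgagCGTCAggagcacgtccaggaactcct

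The PLA2G4A window held none of the 6 motifs and was poor in CpG, with 3 CpG dinucleotides and a GC content of 39.7%, against medians of 14 and 58.7% over all 35116 windows of this length. The PTGER4 window held 4 GC boxes and 2 CCAAT boxes and the HPGD window 3 GC boxes, 1 CCAAT box and 1 E-box, with 30 and 34 CpG dinucleotides. In the PTGES window, 2 GC boxes were found among 10 CpG dinucleotides. The PTGS2 window held a TATA box, 2 CCAAT boxes and 2 TGACG matches. Among all windows, a GC box was present in 44.95%, a CCAAT box in 34.6%, TGACG in 24.6%, an E-box in 20.6%, a TATA box in 11.5% and an AP-1 site in 7.71%. A second HPGD window (chr4:174522844-174523143) differed from the one shown, with 7 CpG dinucleotides, no GC or CCAAT box and 1 TGACG match. A match describes the letters of a window and is not a binding site.

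Of 18 other genes listed with the phospholipases A2, including that of an activating protein, 9 were tested. Of these 1 rose and 1 fell, or 11.1% each, close to the 11.7 and 11.6 percent over all genes tested. Their median log2 fold change was −0.35. PLA2G16, a phospholipase of adipose and other tissues, rose from 47.6 ± 5.57 to 74.7 ± 7.60 FPKM, where ± is the SD over 3 libraries here and in the values that follow (log2 fold change 0.66, SE 0.15, adjusted p = 0.00365). Relative to its local median of 0.26, the median log2 fold change of genes within 5 Mb, PLA2G16 had a log2 fold change of 0.40 and missed the threshold (adjusted p = 0.0797). PNPLA8, a calcium-independent phospholipase, fell from 5.21 ± 1.01 to 3.40 ± 0.575 FPKM (SD, n = 3), with an adjusted p of 0.0218 that was at or over 0.05 in 8 of 20 alternative settings. PLA2G16 was far more abundant than PLA2G4A in both groups on the FPKM scale.

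Cyclooxygenase transcripts were close to undetected. PTGS1 (ENSG00000095303, chr9:122370530-122395703, plus strand), the constitutive cyclooxygenase, had counts of 1, 2 and 0 in Vector and 0, 5 and 0 in OE-MMP28. PTGS2 (ENSG00000073756, chr1:186671791-186680427, minus strand), the inducible cyclooxygenase, had a count of 0 in all 3 Vector libraries and counts of 2, 3 and 1 in OE-MMP28. PTGS2 reads thus appeared in every OE-MMP28 library and in no Vector library, but no count exceeded the 3 that a count of 0 allows, and no fold is given. For the summed counts of 6 against 0, the lower bound of the 95% exact binomial interval of the ratio was 1.05, for counting error only. Without the filter on low counts, edgeR gave PTGS2 a p of 0.0564 and an adjusted p of 0.257, and PTGS1 an adjusted p of 0.873. In the smallest library 3 counts corresponded to 0.0380 FPKM for PTGS1 and 0.0418 FPKM for PTGS2, which is the limit for a single library. PTGS2 lies 148.5 kb from PLA2G4A, whose transcript rose.

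Among the terminal synthases, the prostaglandin E synthases differed in their behaviour. PTGES (ENSG00000148344, chr9:129738331-129753047, minus strand) encodes the inducible microsomal prostaglandin E synthase. It was at 15.8, 12.8 and 11.4 FPKM in Vector and at 6.24, 7.45 and 7.37 FPKM in OE-MMP28, from counts of 457, 328 and 319 against 187, 224 and 235. The highest OE-MMP28 library lay below the lowest Vector library. PTGES fell to 0.527 of its Vector mean (log2 fold change −0.91, SE 0.18, adjusted p = 0.00139).

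PTGES2 (ENSG00000148334, chr9:128120693-128128462, minus strand) encodes a membrane-associated prostaglandin E synthase that is expressed in most tissues. Its FPKM was 24.2, 22.3 and 21.8 in Vector and 23.1, 29.1 and 34.2 in OE-MMP28, from 916 to 1125 counts and 1110 to 1750 counts. OE-MMP28 replicate 1 lay within the Vector range, and the other two OE-MMP28 libraries lay above it. The difference did not pass the threshold (log2 fold change 0.35, SE 0.16, adjusted p = 0.126), but did so when OE-MMP28 replicate 1 was left out (0.48, adjusted p = 0.0319). PTGES3, a cochaperone of HSP90 that also has prostaglandin E synthase activity, was the most abundant of the E synthases, at 133 ± 25.9 FPKM in Vector and 173 ± 23.3 FPKM in OE-MMP28 (SD, n = 3). The groups of PTGES3 overlapped (log2 fold change 0.39, SE 0.16, adjusted p = 0.0796).

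Of 14 other genes listed with the terminal synthases, PTGES3 and several reductases among them, 9 were tested, of which 2 rose and 2 fell. This was 22.2% each, against 11.7 and 11.6 percent over all genes tested, and the median log2 fold change was 0.092. PTGIS, the prostacyclin synthase, rose from 16.3 ± 1.58 to 27.3 ± 1.07 FPKM (log2 fold change 0.75, SE 0.15, adjusted p = 0.000954). TBXAS1, the thromboxane synthase, rose from a low level of 0.0999 ± 0.0370 to 0.354 ± 0.103 FPKM (SD, n = 3), with an adjusted p of 0.00399. Its counts were 7, 7 and 13 against 27, 31 and 49, so like PLA2G4A it passed the count filter only through the OE-MMP28 libraries. In Vector the mean of PTGIS was close to that of PTGES (16.3 and 13.3 FPKM), whereas in OE-MMP28 the means were 27.3 and 7.02 FPKM. The genes AKR1C1 and AKR1C2 encode aldo-keto reductases that act on steroids and prostaglandins. AKR1C2 fell from 5.23 ± 0.421 to 2.44 ± 0.387 FPKM (log2 fold change −1.08, SE 0.18, adjusted p = 0.000198). AKR1C1 fell from 8.46 ± 1.497 to 4.85 ± 0.686 FPKM, with an adjusted p of 0.00203.

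The median log2 fold change of the genes within 5 Mb was −0.50 for AKR1C1 and also for AKR1C2. Relative to this local median the change of AKR1C1 was −0.29 (edgeR adjusted p = 0.258). That of AKR1C2 was −0.58 and still passed the threshold (adjusted p = 0.0278). AKR1C3, which reduces prostaglandins D2 and H2, was the most abundant of these at 85.2 ± 8.55 and 68.1 ± 6.70 FPKM (SD, n = 3). Its groups did not overlap, but the change did not pass the test (log2 fold change −0.31, adjusted p = 0.125) and was 0.24 relative to the local median. These paralogs are closely related in sequence, and the counting rule for reads that match several of them was not given in the sources used here, so their separate values are uncertain. PRXL2B, a prostamide and prostaglandin F synthase, was at 20.6 ± 0.795 and 21.8 ± 4.97 FPKM, with an adjusted p of 0.740.

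**Figure D2:**
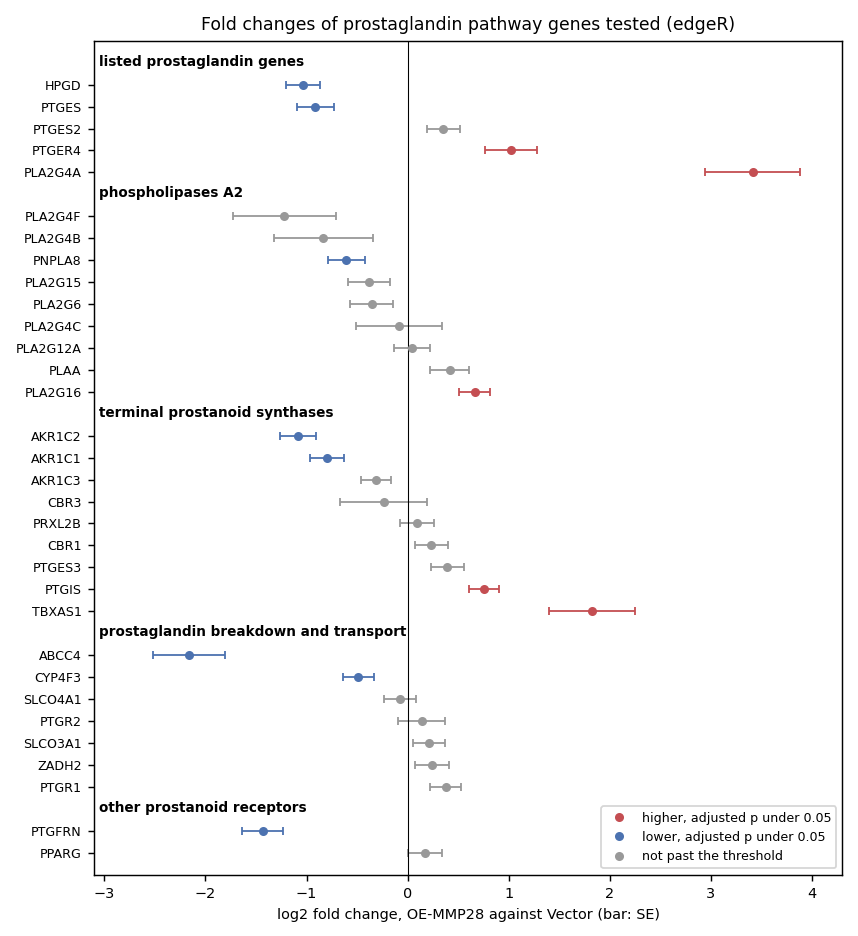
Log2 fold change of OE-MMP28 against Vector (horizontal axis, bar: SE) for the 5 prostaglandin genes tested and for the tested genes of 4 related lists, coloured by whether edgeR's adjusted p was under 0.05. PLA2G4A at 3.41 lies farthest right and ABCC4 at −2.16 farthest left, and every list holds genes on both sides of 0.

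The breakdown gene HPGD (ENSG00000164120, chr4:174490177-174523154, minus strand) encodes the dehydrogenase that inactivates prostaglandin E2 by oxidising its 15-hydroxyl group. Its counts were 2409, 1448 and 1683 in Vector and 1087, 1029 and 843 in OE-MMP28, the largest counts of the prostaglandin genes in Vector. On the FPKM scale these were 28.5, 19.4 and 20.7 against 12.4, 11.7 and 9.06. All OE-MMP28 libraries lay below all Vector libraries, with Vector replicate 1 the highest. HPGD fell to 0.485 of its Vector mean (log2 fold change −1.03, SE 0.17, adjusted p = 0.000264). PTGES and HPGD, a synthase and the dehydrogenase of the same product, thus both fell, with log2 fold changes of −0.91 and −1.03.

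SLCO2A1 (ENSG00000174640, chr3:133928145-134052184, minus strand), the prostaglandin transporter that carries prostaglandin E2 into cells for oxidation, had counts of 0, 5 and 1 in Vector and 3, 3 and 0 in OE-MMP28. The groups overlapped, 3 counts were worth 0.0224 FPKM in the smallest library, and without the count filter the adjusted p was 0.970. Of the 8 genes tested within 1 Mb of SLCO2A1, 7 were higher in OE-MMP28, against 11.7 percent over all genes tested. Their median log2 fold change was 0.68. SLCO2A1 itself had a total of 6 counts in each group, too few to show whether it shifted with these genes.

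Of 11 further breakdown and transport genes, 7 were tested, of which 0 rose and 2 fell. This was 0% and 28.6%, against 11.7 and 11.6 percent over all genes tested. By edgeR, 0 of the 7 had an adjusted p under 0.05 with a positive fold change, and the median log2 fold change was 0.14. ABCC4, an export pump for prostaglandins and cyclic nucleotides, fell from 0.648 ± 0.148 to 0.145 ± 0.0851 FPKM (log2 fold change −2.16, SE 0.36, adjusted p = 0.000246). CYP4F3, which hydroxylates leukotriene B4 and related fatty acids, fell from 8.19 ± 0.478 to 5.80 ± 0.320 FPKM, with an adjusted p of 0.0264 that was at or over 0.05 in 5 alternative settings. PTGR1, a reductase that acts after HPGD, was at 8.37 ± 0.612 and 10.8 ± 0.315 FPKM, with an adjusted p of 0.0864. SLCO4A1, an organic anion transporter, was at 28.3 ± 2.19 and 26.6 ± 4.69 FPKM, with an adjusted p of 0.773.

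Of the receptors, PTGER4 was detected and PTGER2 was not. PTGER4 (ENSG00000171522, chr5:40679498-40693735, plus strand) encodes EP4, a prostaglandin E2 receptor that couples to cAMP production. It had counts of 45, 52 and 42 in Vector and 117, 107 and 89 in OE-MMP28, or 0.743, 0.971 and 0.719 FPKM against 1.87, 1.70 and 1.34 FPKM. The lowest OE-MMP28 library lay above the highest Vector library. PTGER4 rose 2.02-fold in mean FPKM (log2 fold change 1.02, SE 0.26, adjusted p = 0.00705). The gene lies within the span of TTC33 on the opposite strand, but no annotated exon of another gene overlapped its exons.

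PTGER2 (ENSG00000125384, chr14:52314305-52328606, plus strand) encodes EP2, the other prostaglandin E2 receptor that raises cAMP, and had a count of 0 in all 6 libraries. In the smallest library this allows up to 0.0890 FPKM. Of the 10 genes tested within 1 Mb of PTGER2, 5 were higher in OE-MMP28, against 11.7 percent over all genes tested. The median log2 fold change of the 10 was 0.77. Of 9 other prostanoid receptor genes, only PTGFRN and PPARG passed the filter. PTGFRN, a membrane protein that inhibits binding of prostaglandin F2 alpha to its receptor, fell from 2.71 ± 0.312 to 0.992 ± 0.109 FPKM (log2 fold change −1.43, SE 0.20, adjusted p = 4.03e-05). PPARG, a nuclear receptor for fatty acid derivatives, was at 23.2 ± 5.86 and 25.8 ± 1.46 FPKM, with an adjusted p of 0.511.

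Of 13 listed genes that respond to cAMP, the messenger of EP2 and EP4, 11 were tested. Of these 3 rose and 2 fell, or 27.3% and 18.2%, against 11.7 and 11.6 percent over all genes tested, and the median log2 fold change was 0.015. FOS, an immediate-early transcription factor, rose from 153 ± 60.8 to 273 ± 25.3 FPKM (SD, n = 3), with an adjusted p of 0.00450. DUSP1, a MAP kinase phosphatase, rose from 68.6 ± 17.9 to 107 ± 7.63 FPKM, with an adjusted p of 0.00873. PDE4B, a phosphodiesterase that breaks down cAMP, rose from 0.230 ± 0.0954 to 0.480 ± 0.0218 FPKM, with an adjusted p of 0.0223. The calls of DUSP1 and PDE4B were each lost in 4 alternative settings. NR4A2, a nuclear receptor induced early by cAMP, fell from 32.3 ± 5.07 to 15.9 ± 0.760 FPKM (log2 fold change −1.01, SE 0.16, adjusted p = 0.000114). CREM, a cAMP-responsive transcription factor, fell from 2.47 ± 0.176 to 1.34 ± 0.157 FPKM, with an adjusted p of 0.00301. The genes around FOS, NR4A2 and CREM had median log2 fold changes of 0.62, −0.57 and −0.60, and relative to these the adjusted p was 0.492, 0.0594 and 0.375, so 3 of the 5 calls were lost.

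Because genes near SLCO2A1, PTGER2 and AKR1C1 shifted together, each prostaglandin gene tested was also set against its neighbours. Within 5 Mb of PLA2G4A, 25 genes were tested and their median log2 fold change was −0.15, and within 1 Mb the 3 genes tested ran from −0.39 to −0.091. For HPGD the median of 16 neighbours was 0.14, for PTGES that of 128 neighbours was 0.059, for PTGES2 that of 113 was 0.026 and for PTGER4 that of 45 was −0.024. All 4 genes that passed the threshold still passed it relative to these local medians. PTGES and PTGES2 lie 1.61 Mb apart on chromosome 9 and had log2 fold changes of −0.91 and 0.35.

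**Figure D3:**
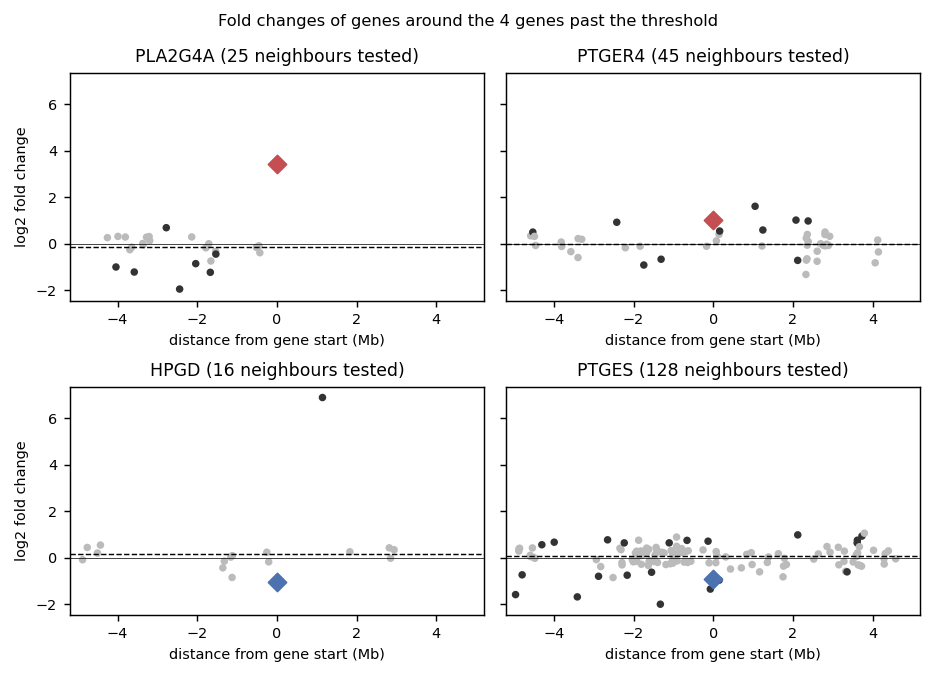
Log2 fold change of every gene tested (vertical axis) against the distance of its start from that of PLA2G4A, PTGER4, HPGD or PTGES (horizontal axis, Mb, in the direction of increasing coordinates), with the named gene as a diamond, neighbours at an adjusted p under 0.05 in dark grey and the neighbours' median as a dashed line. The dashed lines lie between −0.15 and 0.14, away from the diamonds at 3.41, 1.02, −1.03 and −0.91, and 1 neighbour of HPGD, GPM6A, lies at 6.88.

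PLA2G4A had the largest fold change of the prostaglandin genes, and its profile of log2 CPM over the 6 libraries was compared with those of 10439 other genes. ST3GAL6, a sialyltransferase, was most like it with a Pearson's r of 0.998, followed by LMO4, a LIM domain protein, at 0.996 and MCTS1, a translation factor, at 0.994. Their log2 fold changes were 2.37, 0.58 and 0.70. These values are a description over libraries that share their groups and depth, and 200 genes had an r over 0.95.

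Under the alternative settings the log2 fold changes of the 5 genes kept their direction. PTGES ran from −1.01 to −0.77 and PLA2G4A from 0.84 to 3.74, both past the threshold in all 20, with the lowest values of PLA2G4A on the log2(FPKM + 1) scale, which compresses changes of low genes. HPGD ran from −1.17 to −0.84 and PTGER4 from 0.54 to 1.17, each past the threshold in 19 of 20. PTGES2 ran from 0.21 to 0.48 and passed it in 1 of 20.

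**Figure D4:**
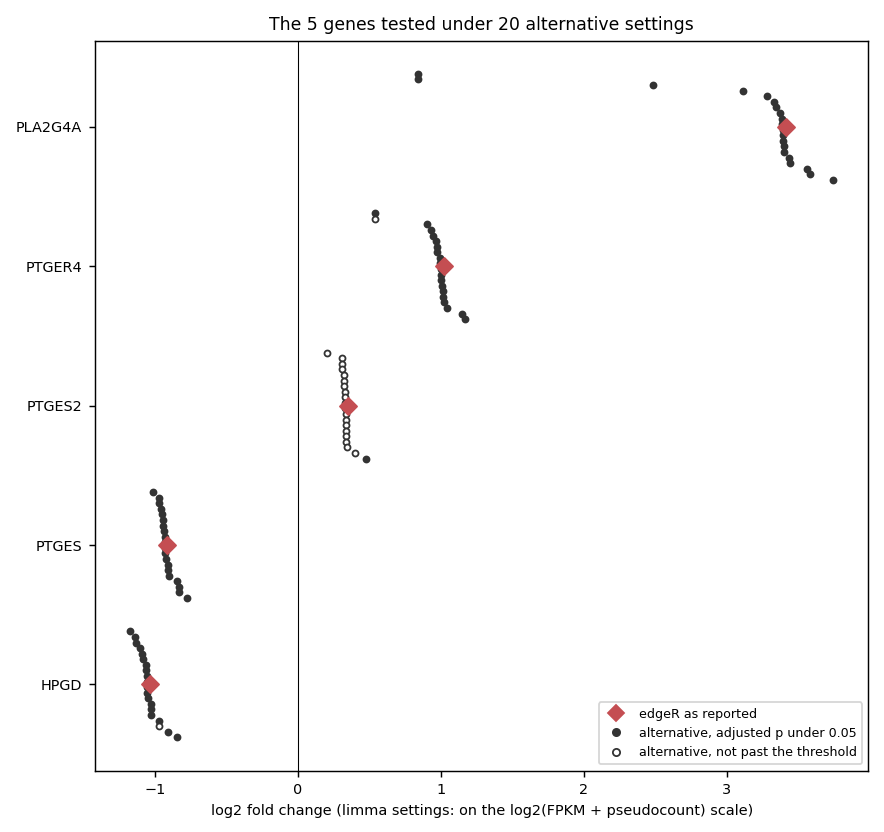
Log2 fold change of PLA2G4A, PTGER4, PTGES2, PTGES and HPGD (horizontal axis) as reported (diamond) and under 20 alternative settings (points, filled where the adjusted p was under 0.05). No point crosses 0, and the points of PTGES2 lie between 0.21 and 0.48.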

How the data were processed

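RNA of 6 AsPC-1 libraries was sequenced, and the labels gave the groups. The authors deposited read counts per gene, neither normalized nor pooled, and FPKM values. The library totals implied by the FPKM values differed from the summed counts by −2.01% to 2.02%, so the FPKM scaling was close to the library total but not equal to it. The submitters' processing notes name HISAT2 2.0.5 and featureCounts 1.5.0-p3, while use of strand and of reads with several matches was not given in the sources used here. The table's own comparison columns (fold changes and p-values) were not used. All 58735 gene identifiers and coordinates matched GENCODE 29 on GRCh38.

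Genes were kept by filterByExpr (minimum count 10, minimum total 15), scaled by TMM and tested with edgeR 4.0.16 (R 4.3.3, quasi-likelihood test, group as the only term) with Benjamini-Hochberg adjustment over all 15319 genes. Fold changes are OE-MMP28 against Vector. Per-library values are deposited FPKM or counts. The 20 alternatives included limma 3.58.1, on log2(FPKM + 1) among other scales, and DESeq2 1.42.0. In tests on simulated data, limma on log2(FPKM + 1) recovered fewer changed genes than edgeR and made more false calls than its nominal rate, and the bounds it had to meet were loosened after this was seen.

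The 9 genes, the 7 pathway lists and the 4 marker lists (epithelial, leukocyte and macrophage, fibroblast, endothelial) were chosen with earlier results of these data known. Named were all 9 genes, and list genes with an adjusted p under 0.05 or a mean of at least 20 FPKM. PTGR1, ALOX5, ACSL4, LPCAT3, MBOAT7, EPCAM, KRT7, KRT8, KRT18, KRT19, CDH1, CLDN4, MUC1, LYZ, LUM, PECAM1, CD14, TYROBP, KDR, TEK and GPM6A were named outside this rule after their values were seen.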

Additional observations from a re-analysis of the deposited data

How the results depend on the processing

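Over the 5 prostaglandin genes tested, 100 alternative fits gave 97 with the same direction and side of the threshold, 2 that lost the call, 1 that gained it and 0 that turned direction. The lost calls were HPGD (−0.97, adjusted p 0.0561) and PTGER4 (0.54, adjusted p 0.125) in unfiltered limma on log2(FPKM + 1), where 1 of the 9 genes was called higher and 1 lower, and MMP28 had 0.84 with an adjusted p of 0.0903. Genes called higher numbered 1795 and genes called lower 1784 as reported. Without single libraries they ranged from 985 to 1916 and from 1044 to 1949, the lowest without OE-MMP28 replicate 2, and without Vector replicate 3 there were 1136 higher. limma gave 1009 and 965 on log2(FPKM + 1), 1000 and 970 on log2(FPKM + 0.1), and 362 and 308 without a filter, and the local-median offset gave 1135 higher. The cause was not tested. Direction turned for AKR1C3 (0.24) and ACSL5 (0.33) with the local-median offset, for PRXL2B without OE-MMP28 replicate 2 (−0.091, range without single libraries −0.091 to 0.24) and for SLCO4A1 without OE-MMP28 replicate 1 (0.051, range −0.17 to 0.051), none of which passed the threshold. Deviations of same-numbered libraries from their group means had correlations of 0.017, 0.0080 and −0.088, and those of differently numbered libraries ran from −0.15 to 0.17. With 3 libraries per group these values cannot show whether the numbers pair the libraries. A replicate block gave 1844 higher and 1841 lower, with 2 and 2 of the prostaglandin genes. At this depth PTGS1, PTGS2 and SLCO2A1 could be tested only without the filter, and PTGER2 not at all.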

Other observations

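Arachidonic acid is also the substrate of lipoxygenases, which lead to leukotrienes. Of 17 genes of this branch, 8 were tested, of which 2 rose and 0 fell by edgeR, with a median log2 fold change of −0.24. This was 25.0% and 0%, against 11.7 and 11.6 percent over all genes tested. LTB4R, a receptor of the chemoattractant leukotriene B4, rose from 2.53 ± 0.598 to 5.02 ± 1.15 FPKM (log2 fold change 1.00, SE 0.21, adjusted p = 0.00202). LTB4R2, a second receptor of this ligand, had an adjusted p of 0.0483 and this was at or over 0.05 in all 20 alternative settings, and the receptors share exon sequence. Both lie in a stretch with a local median of 0.59, and relative to it LTB4R had a log2 fold change of 0.42 and an adjusted p of 0.197. LTA4H, which makes leukotriene B4, was at 23.8 ± 1.44 and 21.0 ± 0.834 FPKM, with an adjusted p of 0.429. ALOX5, the first enzyme of the branch, was at 14.1, 33.4 and 20.5 FPKM in Vector and at 14.2, 15.5 and 15.7 FPKM in OE-MMP28, with an adjusted p of 0.0635.

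Acyltransferases and acyl-CoA synthetases return free fatty acids, arachidonic acid among them, to phospholipids. Of 12 such genes 10 were tested, of which 0 rose and 3 fell by edgeR, with a median log2 fold change of −0.23. This was 0% and 30.0%, against 11.7 and 11.6 percent over all genes tested. LPCAT4 fell from 19.3 ± 7.18 to 11.7 ± 1.13 FPKM (SD, n = 3; adjusted p 0.0157), MBOAT2 from 14.4 ± 1.66 to 9.55 ± 2.01 FPKM (adjusted p 0.0143) and ACSL1 from 1.78 ± 0.578 to 1.07 ± 0.355 FPKM (adjusted p 0.0494). These calls were lost in 5, 6 and 8 of 20 alternative settings. The abundant AGPAT2 and ACSL5 had adjusted p of 0.0707 and 0.612. ACSL4 (log2 fold change 0.17, edgeR adjusted p 0.49) and LPCAT3 (0.16, adjusted p 0.571) did not pass the threshold either. Nor did MBOAT7 (−0.38, adjusted p 0.0913). A gene on the opposite strand overlapped 65.6% of the exon length of LPCAT3. Over all 7 pathway lists, 8 of 56 genes tested were higher and 11 lower, or 14.3% and 19.6%, against 11.7 and 11.6 percent over all 15319 genes tested, and their median log2 fold change was −0.12.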
